A study of Mus musculus with 17 samples.

Results

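Myelo-dendritic progenitors (MDPs) labelled IRF8 knockout were compared with MDPs of reporter mice that expressed the VENUS fluorescent protein, on 6 of the study's 17 Affymetrix perfect-match arrays. The members were taken by title, 3 pools labelled IRF8_ko_MDP and 3 pools labelled IRF8_PAC_MDP, and all 28898 probe sets with 1 gene symbol, of 45037, entered the comparison, covering 17097 genes. IRF8 is a transcription factor of the interferon regulatory factor family that binds DNA together with partners such as PU.1 and directs progenitors towards monocytes and dendritic cells. Mice without it are known for few plasmacytoid and CD8+ dendritic cells and an excess of granulocytes. MDPs are held to be bone marrow progenitors from which both macrophages and dendritic cells arise.

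Both groups came from mouse bone marrow of animals 6 to 10 weeks old and were sorted by 1 gate, negative for lineage markers, Sca1 and CD127 and positive for CD117 (the product of Kit) and for the M-CSF receptor (the product of Csf1r). Both also carry the genotype label IRF8-deficient. The knockout-labelled group (n = 3 pools) is described as IRF8 knockout and each of its pools held cells of 5 mice. The VENUS-positive group (n = 3 pools) is described by VENUS expression. The sources used here do not give how many mice made up each of its pools, what drives the reporter or what the genotype label means for it. Wild-type MDPs (3 pools of 5 mice) and VENUS-negative MDPs (2 pools) are shown beside the members where they bear on a value. Levels are deposited RMA values in log2 units, in which 1 unit is a doubling, and differences are knockout-labelled minus VENUS-positive. The lower quartile of an array lay at 3.18 to 3.42, and no fold is given where the lower group averaged 3.5 or less.

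The arrays correlated at r = 0.9721 to 0.9766 among knockout-labelled pools, at 0.9602 to 0.9718 among VENUS-positive pools and at 0.9543 to 0.9687 between the groups (Pearson, over all probe sets, which are not replicates of one another). VENUS-positive pool 1 stood farthest from the others of its group. None of 4 measured sex-linked genes was called, but the VENUS-positive pools differed among themselves. Xist, transcribed from the inactive X chromosome of female cells, had levels of 11.63, 11.88 and 11.41 in knockout-labelled pools, against 5.44, 4.86 and 11.65 in VENUS-positive pools. Kdm5d, a histone demethylase gene of the Y chromosome, had 5.45, 4.79 and 7.44 in knockout-labelled pools, against 8.44, 8.21 and 4.49 in VENUS-positive pools. VENUS-positive pool 3 thus lay with the knockout-labelled pools for Xist, while pools 1 and 2 of its group did not. No comparison was made within 1 sex, since pooled animals cannot be separated. Without VENUS-positive pool 3, Xist differed by 6.49 (adjusted p = 0.0243, against 0.27 with all pools).

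Of the 17097 genes, 362 (2.12%) were called at an adjusted p under 0.05, 195 higher (1.14%) and 167 lower (0.977%) in knockout-labelled MDPs. The difference was at least 2-fold for 302 of them (164 higher, 138 lower) and at least 4-fold for 84 (53 higher, 31 lower). The 3 arrays of each group did not overlap for 361 of the 362, VENUS-positive pool 3 included, while 2452 genes in all (14.3%) did not overlap. The median difference over all genes was -0.01. Of the 362 genes, 174 had further probe sets, and in 152 all of these shared the sign of the difference. Leaving out 1 pool at a time gave 246 to 308 calls, the fewest without knockout-labelled pool 2 (107 of them lower), and 177 genes (95 higher, 82 lower) were called in the fit of all arrays and in each of those 6 fits. The calls borrow the estimate of spread from all 17 arrays, and 189 genes (109 higher, 80 lower) were called when the fit held only these 6.

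**Figure D1:**
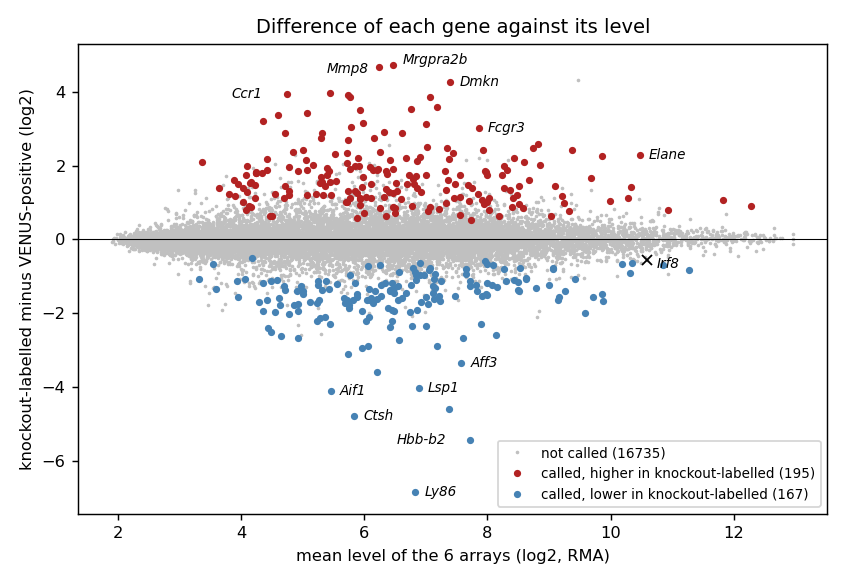
Difference (knockout-labelled minus VENUS-positive, log2, vertical axis) against the mean level of the 6 arrays (log2, horizontal axis) for each of the 17097 genes. Called genes are in colour, 195 higher and 167 lower, and the cross marks Irf8, which was not called; Ly86 lies lowest at -6.85 and Mrgpra2b highest at 4.71.

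The targeted gene did not check the knockout label. Irf8 had levels of 10.32, 10.42 and 10.18 in knockout-labelled pools, against 10.72, 10.81 and 11.10 in VENUS-positive pools, a difference of -0.57 (SE 0.42, adjusted p = 0.751). Its other probe set differed by -0.66. The sources used here do not say whether these probe sets read the part of Irf8 that was disrupted, and both groups stood far above the VENUS-negative pools, at 5.49 and 6.25. Among 9 measured genes, of the 15 on each side of Irf8 in RefSeq order, none was called, and their median difference was -0.21. With 2.12% of all genes called, so few genes could hold no call in any case.

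Of 4 measured progenitor receptor and surface genes, Kit and Csf1r of the sort gate with Cd34 and Flt3, 1 was called higher and 1 lower. Kit, the stem cell factor receptor and the antigen of the CD117 gate, had levels of 8.08, 8.21 and 8.08 in knockout-labelled pools, against 6.62, 7.40 and 6.89 in VENUS-positive pools, and was 2.22-fold higher (difference 1.15, SE 0.23, adjusted p = 0.0166). It lost the call without VENUS-positive pool 1 (adjusted p = 0.075), VENUS-positive pool 3 (0.0594) or knockout-labelled pool 2 (0.0704), and when the fit held only the 6 arrays (0.0685). Cd34, a sialomucin of early progenitors, had 8.81, 8.54 and 7.80 in knockout-labelled pools, against 9.39, 9.79 and 9.64 in VENUS-positive pools, and was 2.34-fold lower (difference -1.22, SE 0.23, adjusted p = 0.0109). It lost the call when the fit held only the 6 arrays (0.12) or the 11 MDP arrays (0.064). Neither gene's groups overlapped. Csf1r (difference -0.54, adjusted p = 0.481) and Flt3, the receptor of the dendritic cell growth factor FLT3 ligand (-0.46, adjusted p = 0.839), were not called, nor was Spi1, which encodes PU.1 (-0.25, adjusted p = 0.678). Kit and Cd34 were also the 2 called members of a list of 25 stem cell and early progenitor genes (8%, against 2.12% of all genes). That list's median difference was -0.15.

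None of the defining markers of most other cell types was called. Markers of eosinophils (Prg2, Epx), basophils and mast cells (Cpa3, Ms4a2), megakaryocytes (Pf4, Itga2b), B cells (Pax5), T cells (Cd3e, Cd3g), NK cells (Ncr1, Klrb1c), CD8+ dendritic cells (Xcr1), stroma (Col1a1) and endothelium (Cdh5) lay between 2.48 and 4.95 in knockout-labelled pools and between 2.55 and 5.25 in VENUS-positive pools, where array medians were 4.33 to 4.48. Itga2b and Klrb1c lay above those medians in most or all pools of both groups. Neutrophil and red cell genes differed and are given beside the results they touch. In bulk samples, fewer cells of a type and less RNA per cell cannot be told apart.

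The promoters of the deepest fall, Ly86, and of Aif1 are shown, because Aif1 is the only gene, among those of the 15 largest falls that could be searched, whose promoter window held either motif. Hbb-b2, Ctsh, Lsp1, Marcks and Kctd14 were not searched. The windows run from 250 bases before to 50 bases after the RefSeq start site (GRCm38.p6, 5′ to 3′ in gene orientation), at chr13:37345095-37345394 on the plus strand for Ly86 and at chr17:35176003-35176302 on the minus strand for Aif1. Capitals mark the match to the core of the interferon-stimulated response element, GAAA followed after any 2 bases by GAAA, which starts 157 bases before the start site of Aif1.
Ly86: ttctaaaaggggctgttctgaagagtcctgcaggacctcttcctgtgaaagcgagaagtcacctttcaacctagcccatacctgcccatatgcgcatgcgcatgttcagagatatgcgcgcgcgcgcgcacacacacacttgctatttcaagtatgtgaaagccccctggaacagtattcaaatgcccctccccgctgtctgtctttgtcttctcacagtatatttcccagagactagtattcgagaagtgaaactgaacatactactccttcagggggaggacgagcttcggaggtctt
Aif1: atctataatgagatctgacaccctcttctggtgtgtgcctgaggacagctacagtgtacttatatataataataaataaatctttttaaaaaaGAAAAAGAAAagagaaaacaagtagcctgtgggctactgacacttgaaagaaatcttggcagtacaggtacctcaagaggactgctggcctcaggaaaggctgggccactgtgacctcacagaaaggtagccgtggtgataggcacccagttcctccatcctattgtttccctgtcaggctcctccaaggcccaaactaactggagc
The other motif was the composite element of ETS and IRF factors, GGAA followed after any 2 bases by GAAA, and both were searched on both strands. Of the 50 largest falls 35 genes had at least 1 window, and 4 of these genes held either motif (11.4%). It was 2 of 40 genes with a window among the 50 largest rises (5%) and 849 of 13605 among all genes tested (6.24%). A match is a string of letters in 1 window and not a site, and genes differed in how many windows they had (1.11, 1.5 and 1.25 on average in those sets).

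The deepest fall was that of Ly86, and the 15 largest falls also held Ctsh, Aif1, Lsp1 and 2 globin genes. Ly86, which encodes MD-1, the secreted partner of the Toll-like receptor homologue RP105 (Cd180), had levels of 3.87, 3.08 and 3.24 in knockout-labelled pools, against 9.94, 10.63 and 10.19 in VENUS-positive pools (difference -6.85, SE 0.29, adjusted p = 1.15e-08). Ctsh, the lysosomal aminopeptidase cathepsin H, had 3.78, 3.23 and 3.31 in knockout-labelled pools, against 8.13, 8.06 and 8.52 in VENUS-positive pools (difference -4.79, SE 0.29, adjusted p = 7.7e-07). For both genes the knockout-labelled pools lay about at the arrays' lower quartile and the VENUS-positive pools in their upper range. Aif1, a calcium-binding protein that bundles actin in macrophages, had 3.37, 3.14 and 3.71 in knockout-labelled pools, against 7.41, 7.24 and 7.87 in VENUS-positive pools (difference -4.10, SE 0.50, adjusted p = 0.000379). Lsp1, an actin-binding protein of leukocytes, had 5.28, 4.53 and 4.80 in knockout-labelled pools, against 8.84, 8.94 and 8.91 in VENUS-positive pools, 16.3-fold lower (difference -4.03, SE 0.33, adjusted p = 1.74e-05). Each pool of one group lay apart from each pool of the other in both, as the choice of the 15 largest falls required.

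Among the other members of the 15 largest falls, Marcks, an actin-linked substrate of protein kinase C, was 7.46-fold lower, Map7, a microtubule-binding protein, 7.66-fold lower and Krt18, a keratin, 6.33-fold lower. Itgb7, the integrin beta 7 chain, was 6.35-fold lower, with 6.69, 6.17 and 5.96 in knockout-labelled pools, against 8.87, 8.83 and 9.12 in VENUS-positive pools. Aff3, a nuclear protein of the AF4 family, was 10.2-fold lower, with 6.30, 5.70 and 5.69 in knockout-labelled pools, against 8.77, 9.42 and 9.56 in VENUS-positive pools. Tspan33, a tetraspanin, was 12.1-fold lower, Bex1 8.55-fold, Ppfia4, a liprin, 7.45-fold and Kctd14 6.57-fold. Adjusted p-values of these 9 genes ran from 4.08e-06 (Aff3) to 0.00155 (Bex1). The further probe sets of Tspan33 differed by -3.81 to -0.17 and those of Map7 by -2.33 to -0.32. Those of Ppfia4 differed by -2.88 to -0.97 and those of Kctd14 by -3.28 to -1.10, so probe sets of these genes did not give 1 size.

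The globin genes fell too. Hbb-b2, an adult beta globin, had 5.09, 5.35 and 4.57 in knockout-labelled pools, against 10.18, 10.14 and 11.01 in VENUS-positive pools, 43.4-fold lower (difference -5.44, SE 0.66, adjusted p = 0.000394). Hba-a1, an alpha globin, was 24.3-fold lower (adjusted p = 0.0126), and lost the call without VENUS-positive pool 3 (0.0585) or knockout-labelled pool 1 (0.0532). Further probe sets differed by -4.77 to -0.38 for Hbb-b2 and by -5.97 to -3.28 for Hba-a1. Globin genes have near-identical copies, and which copy a probe set reads is uncertain. Hbb-b2 and Hba-a1 were the only 2 of 19 measured erythroid and megakaryocyte genes that were called (10.5%, against 2.12% of all genes). The list's mean level was 4.70, 4.82 and 4.81 in knockout-labelled pools, against 5.77, 5.45 and 5.94 in VENUS-positive pools. That mean includes the globin genes, and the median difference of the 19 genes was -0.33. The part of red cells in the other falls was not tested.

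**Figure D2:**
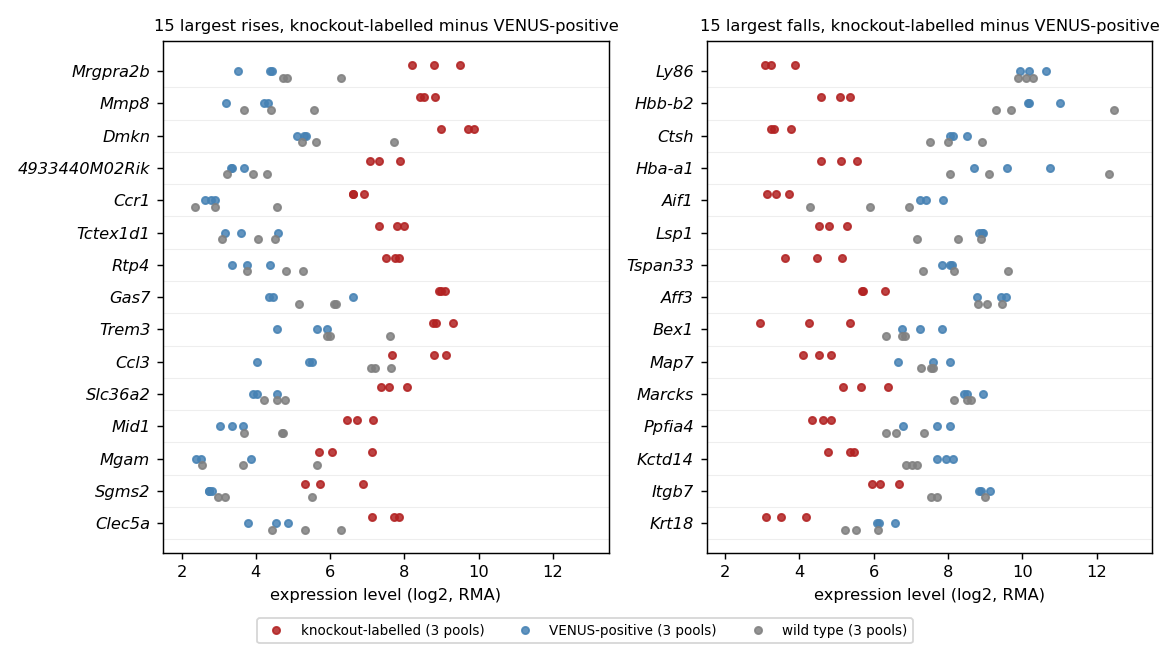
Level in each pool (log2, RMA, horizontal axis) of the 15 genes with the largest rises (left) and falls (right), for knockout-labelled, VENUS-positive and wild-type MDPs (3 points each, top to bottom within a gene). The 30 genes were chosen among called genes without overlap between knockout-labelled and VENUS-positive pools, so that separation follows from the choice. The wild-type mean lies nearer the VENUS-positive mean in each of them except Ccl3.

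The largest rises were those of Mrgpra2b and Mmp8. Mrgpra2b, a Mas-related G protein-coupled receptor that stood among the granulocyte genes of the spleen arrays, had levels of 9.49, 8.79 and 8.20 in knockout-labelled pools, against 4.44, 3.52 and 4.37 in VENUS-positive pools, 26.2-fold higher (difference 4.71, SE 0.44, adjusted p = 4.55e-05). Mmp8, the neutrophil collagenase, had 8.81, 8.51 and 8.41 in knockout-labelled pools, against 4.33, 4.21 and 3.19 in VENUS-positive pools, 25.4-fold higher (difference 4.67, SE 0.44, adjusted p = 4.55e-05). Within each group the pools of both genes lay much closer together than the groups did. Trem3, an activating receptor of myeloid cells, had 8.78, 8.84 and 9.30 in knockout-labelled pools, against 5.92, 5.64 and 4.57 in VENUS-positive pools, 12.1-fold higher (difference 3.60, SE 0.45, adjusted p = 0.000492). Clec5a, a C-type lectin receptor, was 8.97-fold higher (adjusted p = 0.0031).

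The chemokine receptor genes Ccr1 and Ccr2 and the antibody receptor gene Fcgr3 were also higher. Ccr1, a receptor of CCL3 and CCL5, had 6.92, 6.61 and 6.61 in knockout-labelled pools, against 2.80, 2.62 and 2.91 in VENUS-positive pools, where it lay under the lower quartile (difference 3.94, SE 0.49, adjusted p = 0.000492). Ccr2, the CCL2 receptor that monocytes use to leave the marrow, had 9.863, 9.993 and 10.085 in knockout-labelled pools, against 7.509, 7.001 and 7.996 in VENUS-positive pools, 5.57-fold higher (difference 2.48, SE 0.24, adjusted p = 6.01e-05). They were the 2 of 15 measured chemokine receptors that were called (13.3%, against 2.12% of all genes), and the median of the 15 was 0.14. Fcgr3, a low-affinity receptor for IgG, had 9.35, 9.39 and 9.34 in knockout-labelled pools, against 6.35, 6.28 and 6.42 in VENUS-positive pools, 8.07-fold higher (difference 3.01, SE 0.26, adjusted p = 2.97e-05). Its pools were among the tightest of the genes named, within 0.1 log2 units of their group's mean.

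Ccl3, a chemokine ligand of CCR1, rose 11.6-fold, with 9.12, 8.79 and 7.66 in knockout-labelled pools, against 5.44, 5.50 and 4.02 in VENUS-positive pools (difference 3.53, SE 0.41, adjusted p = 0.000282). The remaining members of the 15 largest rises were Dmkn, a secreted protein of epithelia (19.4-fold), Tctex1d1, of the dynein light chain family (15.1-fold), Gas7 (14.4-fold), Slc36a2, a proton-coupled amino acid transporter (11.4-fold), and Rtp4, an interferon-induced gene (14.5-fold). Mid1, a microtubule-bound ubiquitin ligase (difference 3.43), Mgam, an intestinal glucosidase that was also in the granulocyte signature of the spleen arrays (3.37), Sgms2, a sphingomyelin synthase (3.21), and the unnamed model 4933440M02Rik (3.97) lay too low in VENUS-positive pools for a fold. Adjusted p-values of these 9 genes ran from 7.7e-07 (4933440M02Rik) to 0.00744 (Mgam). Further probe sets differed by 1.13 to 3.13 for Gas7, 1.27 for Rtp4, 1.28 for Sgms2 and 2.41 for Tctex1d1, less than the sizes given.

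The list of primary granule genes, which promyelocytes express, also held genes of other proteins, such as Gfi1, Ms4a3 and Gstm1. Members of this mixed list were higher in knockout-labelled MDPs. Of 15 measured, 8 were called higher (53.3%, against 1.14% of all genes) and 0 lower, the median difference was 1.75, and all 15 had a higher mean. Elane, neutrophil elastase, had levels of 11.67, 11.43 and 11.72 in knockout-labelled pools, against 9.47, 8.98 and 9.55 in VENUS-positive pools, 4.83-fold higher (difference 2.27, SE 0.51, adjusted p = 0.0315). Ms4a3, a membrane protein of granulocyte-monocyte progenitors, had 10.54, 10.39 and 10.81 in knockout-labelled pools, against 8.11, 8.04 and 8.29 in VENUS-positive pools, 5.4-fold higher (adjusted p = 0.00721). Gstm1, a glutathione transferase, had 11.17, 10.84 and 10.95 in knockout-labelled pools, against 8.47, 9.01 and 8.70 in VENUS-positive pools, 4.79-fold higher (adjusted p = 0.000697). None of the 3 genes overlapped between the groups. Gfi1, a transcriptional repressor needed for neutrophil formation, was 3.37-fold higher (difference 1.75, adjusted p = 0.0358). Mgst1, a microsomal glutathione transferase, was 5.7-fold higher, but its other probe set differed by -0.09. Of Mpo, Elane, Prtn3 and Ctsg, which encode granule enzymes, only Elane was called. Mpo (difference 0.32), Ctsg (0.69) and Prtn3 (0.84) were not, and Mpo lay near the top of the scale in both groups. None of these overlapped between the groups, and the standard deviation of the pools within a group ran from 0.02 to 0.21. The shared fit's SE, which takes in the other arrays, was 0.50 for Mpo, 0.42 for Ctsg and 0.35 for Prtn3.

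The count of called primary granule genes fell whichever pool was left out. With all pools it was 8 when the fit held only the 6 arrays and 7 with the 11 MDP arrays. With the pool number as a block in the fit of 6 it was 5. Leaving out 1 pool, the count was 4 without knockout-labelled pool 1 or 3 or VENUS-positive pool 1 or 2. It was 5 without knockout-labelled pool 2 or VENUS-positive pool 3, while the median stayed between 1.52 and 1.84. Elane and Gfi1 lost the call without any 1 of the 6 pools, with adjusted p-values of 0.0664 to 0.108 and of 0.0548 to 0.138. Both kept it when the fit held only the 6 arrays. Nkg7 (difference 1.86) lost it without any 1 except knockout-labelled pool 2 (0.0527 to 0.0966).

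The list of secondary and tertiary granule genes, which later neutrophil stages express, also held neutrophil genes of other kinds. Of 28 measured, 4 were called higher (14.3%, against 1.14% of all genes) and 0 lower, with a median difference of 0.68. The 4 were Mrgpra2b, Mmp8, Trem3 and Pygl, the liver glycogen phosphorylase (3.58-fold higher, adjusted p = 0.00789). Mrgpra2b and Trem3 encode receptors and Pygl a metabolic enzyme, which leaves Mmp8 as the granule gene among them. Lcn2 (difference 0.59) and Mmp9 (-0.19), also of the list, were not called. The defining neutrophil markers were not called. Ltf, lactoferrin, had 5.45, 4.52 and 5.17 in knockout-labelled pools, against 5.28, 3.64 and 5.59 in VENUS-positive pools, and overlapped. Camp, the cathelicidin precursor, had 6.89, 6.68 and 7.02 in knockout-labelled pools, against 5.83, 4.43 and 4.74 in VENUS-positive pools (difference 1.86, SE 1.15, adjusted p = 0.66), and did not overlap. Ngp, neutrophilic granule protein, was 2.51-fold higher without overlap (difference 1.33, adjusted p = 0.837). The shared fit's SE for Camp and Ngp takes in wild-type pool 3, at 10.55 and 9.73, while wild-type pools 1 and 2 lay between 3.86 and 5.34 for both genes. The list's mean level was 6.43, 6.02 and 6.22 in knockout-labelled pools, against 5.21, 4.89 and 5.11 in VENUS-positive pools. The part of more mature neutrophils in these rises was not tested. Wild-type MDPs gave no steady point for this list, with means of 4.95, 4.89 and 7.36, since the markers of several mature cell types were high in wild-type pool 3.

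Monocyte and macrophage genes did not move one way. Of 35 measured, 3 were called higher (Fcgr3, Ccr2 and Nr4a1) and 3 lower (Ly86, Ms4a4c and Mpeg1), with a median difference of 0.05. That is 17.1% called, against 2.12% of all genes. Ms4a4c, a membrane protein of the MS4A family, was 3.04-fold lower with 6.56, 6.23 and 6.20 in knockout-labelled pools, against 7.56, 7.80 and 8.43 in VENUS-positive pools (difference -1.60, adjusted p = 0.0204). Mpeg1, the pore-forming protein perforin-2 of phagocytes, was 2.11-fold lower (difference -1.08, adjusted p = 0.0332). Both calls rested on single pools, and 1 gene of the list was lower without VENUS-positive pool 3 or knockout-labelled pool 2 or 3. Ms4a4c lost it without VENUS-positive pool 3 (adjusted p = 0.0862) or knockout-labelled pool 2 (0.0817) or 3 (0.0707), and Mpeg1 without any 1 of VENUS-positive pools 2 and 3 and knockout-labelled pools 2 and 3 (0.0786 to 0.147). Klf4, a factor of monocyte differentiation, had 6.60, 6.11 and 4.52 in knockout-labelled pools, against 7.28, 7.48 and 8.66 in VENUS-positive pools, and was not called (difference -2.06, adjusted p = 0.0962).

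Some antigen presentation genes of MHC class II were called lower in knockout-labelled MDPs. Of 13 measured, 4 were called lower and 0 higher (30.8%, against 0.977% of all genes called lower), the median difference was -0.74 and all 13 had a lower mean. H2-DMa, a chain of the chaperone that loads peptides, had levels of 7.38, 7.13 and 7.24 in knockout-labelled pools, against 8.37, 8.44 and 9.43 in VENUS-positive pools, 2.82-fold lower (difference -1.50, SE 0.25, adjusted p = 0.00408). Ctss, cathepsin S, which trims the invariant chain, had 8.73, 8.62 and 8.32 in knockout-labelled pools, against 9.70, 10.16 and 10.00 in VENUS-positive pools, 2.64-fold lower (difference -1.40, SE 0.22, adjusted p = 0.00314). Neither gene overlapped between groups. H2-DMb1, a partner chain of H2-DMa, was 3.13-fold lower (difference -1.65, adjusted p = 0.0122), a call lost without VENUS-positive pool 1 (0.0539), and H2-DMb2 was 2.6-fold lower (-1.38, adjusted p = 0.00227). The class II chain genes H2-Aa (-0.56), H2-Ab1 (-0.24), H2-Eb1 (-0.16) and H2-Eb2 (-0.09) were not called, nor was Ciita (-0.13). Of these only H2-Aa did not overlap between the groups. Cd74, the invariant chain itself, had 4.09, 4.16 and 4.71 in knockout-labelled pools, against 6.34, 5.94 and 6.24 in VENUS-positive pools. It was not called (difference -1.86, SE 0.69, adjusted p = 0.27), though the groups did not overlap. The shared fit's SE takes in wild-type pool 3, at 7.99, while wild-type pools 1 and 2 lay at 4.52 and 4.39. H2-DMa, H2-DMb1 and H2-DMb2 were not called when the fit held only the 6 arrays, in which Ctss and 2 further members were. The list's median ran from -1.14 without knockout-labelled pool 1 to -0.43 without knockout-labelled pool 2.

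Of 22 conventional dendritic cell genes, 2 were lower and 0 higher (9.09%, against 0.977% of all genes called lower), with a median of -0.20. Dpp4, the surface peptidase CD26, was 5.12-fold lower, with 5.27, 5.84 and 6.37 in knockout-labelled pools, against 7.80, 8.36 and 8.40 in VENUS-positive pools (difference -2.36, adjusted p = 0.00279). The other probe set of Dpp4 differed by -0.63. Cd24a, a glycoprotein carried by many immature blood cells, was 3.95-fold lower, with 8.53, 8.43 and 8.83 in knockout-labelled pools, against 10.81, 10.51 and 10.42 in VENUS-positive pools (difference -1.98, adjusted p = 0.000697). Of 13 plasmacytoid dendritic cell genes 1 was lower (7.69%, against 0.977% of all genes) and 0 were higher. The lower gene was Atp1b1, a subunit of the sodium pump (2.17-fold, adjusted p = 0.00816). Among 27 genes reported elsewhere as IRF8 targets, 4 were lower (Ly86, Aif1, Ctss and Mpeg1) and 0 higher, with a median of -0.44. The lower share was 14.8%, against 0.977% of all genes. The median of these targets ran from -0.19 without VENUS-positive pool 1 to -0.44 without knockout-labelled pool 1.

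**Figure D3:**
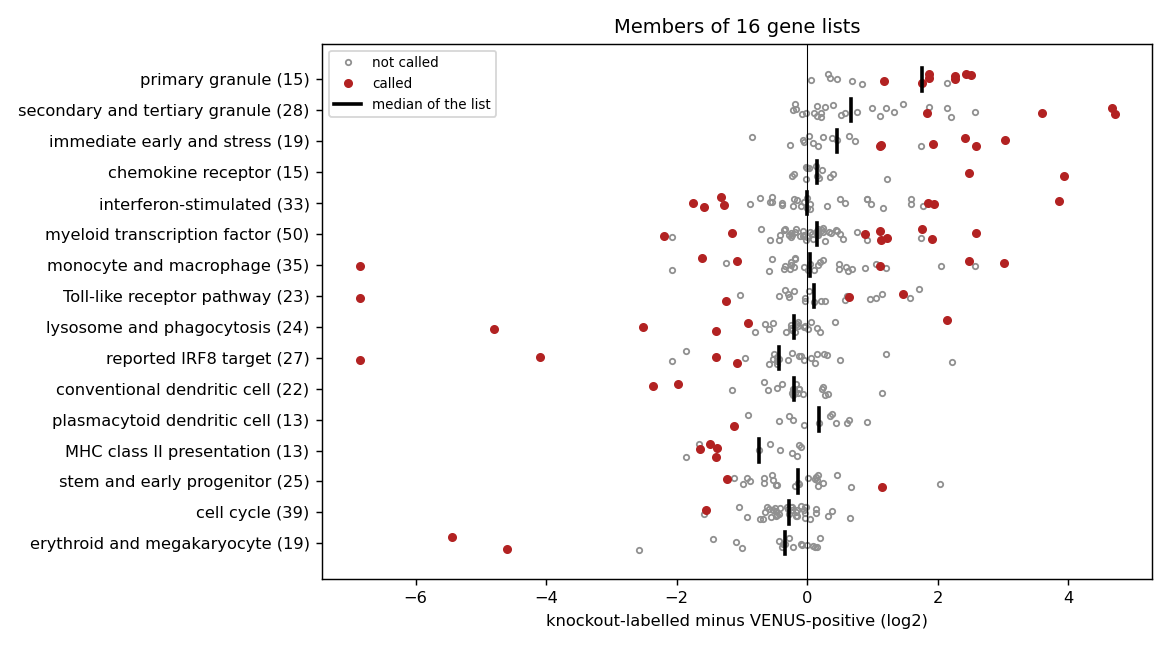
Difference (knockout-labelled minus VENUS-positive, log2, horizontal axis) of each measured member of 16 gene lists, with the number of members in brackets. Filled points were called, open points were not, and bars are list medians. The bar is highest for the primary granule list (1.75) and lowest for MHC class II presentation (-0.74). The far left points are Ly86, which stands in 3 lists.

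Of 50 myeloid transcription factors, 7 were called higher and 2 lower (18%, against 2.12% of all genes, median 0.14). Bach2, a repressor best known in B cells, had levels of 5.49, 5.46 and 5.09 in knockout-labelled pools, against 7.58, 7.35 and 7.71 in VENUS-positive pools, 4.6-fold lower (difference -2.20, SE 0.20, adjusted p = 4.45e-05). One of its further probe sets differed by -0.02. Runx3, a Runt-family factor of dendritic and T cells, differed by -1.16. The 7 higher factors were Fos (2.60), Klf2 (1.91), Gfi1 (1.75), Klf6 (1.23), Jun (1.13), Nr4a1 (1.11) and Cebpd (0.89). Their count depended on single pools. It was 1 without knockout-labelled pool 1, 2 without knockout-labelled pool 2 or VENUS-positive pool 1, 3 without VENUS-positive pool 2 or 3, and 1 when the fit held only the 6 arrays, while 2 factors were called lower in each fit that left out 1 pool.

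Fos, Jun and Nr4a1 also belong to the immediate early genes, which cells switch on within minutes of stimulation or handling. Of 19 immediate early and stress genes, 6 were called higher and 0 lower (31.6%, against 1.14% of all genes called higher), with a median of 0.45. Dusp1, a phosphatase of MAP kinases, had 9.96, 9.07 and 8.40 in knockout-labelled pools, against 6.24, 6.83 and 7.09 in VENUS-positive pools, 5.36-fold higher (difference 2.42, SE 0.35, adjusted p = 0.00153). Fos, a subunit of AP-1, had 10.87, 10.33 and 9.14 in knockout-labelled pools, against 7.71, 8.44 and 6.40 in VENUS-positive pools, 6.04-fold higher (difference 2.60, SE 0.55, adjusted p = 0.0212). Fosb, its homologue, had 8.18, 8.32 and 5.40 in knockout-labelled pools, against 4.16, 4.98 and 3.64 in VENUS-positive pools (difference 3.04, SE 0.71, adjusted p = 0.0416). The groups did not overlap in any of these, but knockout-labelled pool 3 came within 1 log2 unit of the nearest VENUS-positive pool in Fos and Fosb.

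Those immediate early calls did not hold in every fit. The count was 2 without knockout-labelled pool 1 or 2 or VENUS-positive pool 1, 3 without VENUS-positive pool 3, 4 without VENUS-positive pool 2 and 7 without knockout-labelled pool 3, and 0 when the fit held only the 6 arrays. The wild-type pools lay near the knockout-labelled ones for Fos, Fosb and Dusp1. Wild-type levels were 9.83, 9.49 and 9.89 for Fos and 9.02, 8.60 and 9.25 for Dusp1, and knockout-labelled minus wild-type differences were 0.38 (adjusted p = 0.968) and 0.19 (0.98). The difference from wild type was 1.25 for Ier3 (0.146), 0.60 for Nr4a1 (0.438) and 0.55 for Jun (0.566), so that Ier3 and Nr4a1 lay nearer the VENUS-positive mean in wild type and Jun about midway. Ccl3 lay between, with a difference from wild type of 1.22 (adjusted p = 0.283).

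**Figure D4:**
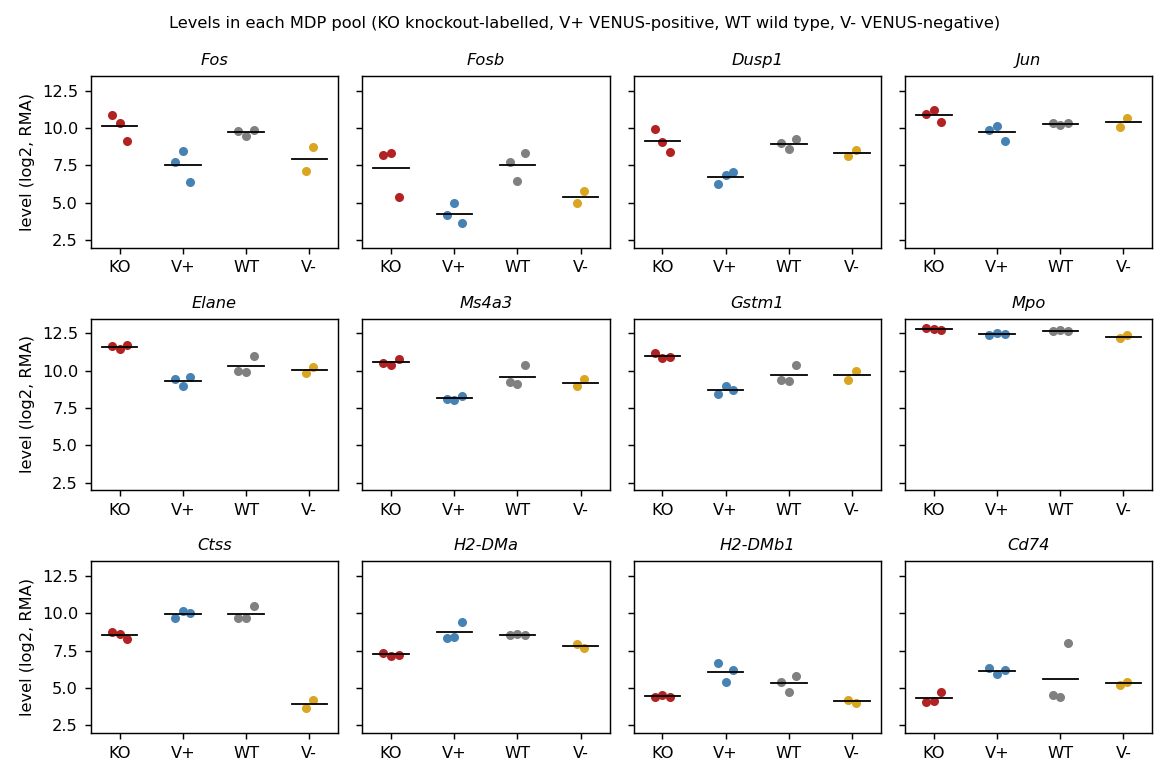
Level (log2, RMA, vertical axis) of 12 genes in each MDP pool, with a bar at each group's mean, for knockout-labelled (KO), VENUS-positive (V+), wild-type (WT) and VENUS-negative (V-) pools. In the top row wild-type Fos, Fosb and Dusp1 lie at the knockout-labelled level; in the middle row Elane, Ms4a3 and Gstm1 lie between in wild type, and Mpo lies near the top of the scale in all groups; in the bottom row Ctss and H2-DMa are lower in knockout-labelled than in VENUS-positive and wild-type pools, and Cd74 is apart in wild-type pool 3.

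Lysosomal genes were called lower in 4 of 24 and higher in 1 (20.8% together, against 2.12% of all genes). The lower ones were Ctsh, Ctss, Ctse, an aspartic protease (difference -2.52, adjusted p = 0.0474), and Hexa, a hexosaminidase subunit (-0.91). Ctsl, cathepsin L, was 4.44-fold higher, with 7.43, 7.72 and 7.33 in knockout-labelled pools, against 5.29, 5.17 and 5.57 in VENUS-positive pools (difference 2.15, adjusted p = 0.000383), while its other probe set differed by 0.26. Cathepsins thus moved both ways within 1 list. Ctse lost the call without any 1 of the 6 pools (adjusted p 0.0743 to 0.172), and the count of lower genes was 2 without knockout-labelled pool 1 or 2 or VENUS-positive pool 3.

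Receptor genes of the Toll-like pathway were also split. Of 23 measured, 2 were higher and 2 lower (17.4% together, against 2.12% of all genes). Ly96, which encodes MD-2, the homologue of MD-1 that partners TLR4, was 2.76-fold higher, with 5.18, 4.54 and 5.18 in knockout-labelled pools, against 3.26, 3.42 and 3.82 in VENUS-positive pools (difference 1.47, adjusted p = 0.0268). It lost the call without any 1 of VENUS-positive pools 1 and 2 and knockout-labelled pools 1 and 3 (0.0782 to 0.101). Tlr5, the flagellin receptor, was 1.56-fold higher (adjusted p = 0.0286), a call lost without any 1 of VENUS-positive pools 2 and 3 and knockout-labelled pools 1 and 3 (0.0636 to 0.115). Tlr12, a receptor of profilin, was 2.37-fold lower (-1.24, adjusted p = 0.00939). Cd180, the receptor that MD-1 binds, was not called (difference -0.30, adjusted p = 0.888), so only 1 gene of that complex was called. The count of higher genes in the list was 0 without VENUS-positive pool 2 or knockout-labelled pool 1 and 1 without VENUS-positive pool 3.

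Of 25 cytokine and growth factor receptors, 2 were higher and 2 lower (16% together, against 2.12% of all genes). Ifngr1, a chain of the interferon-gamma receptor, was 3.04-fold higher, with 9.27, 9.67 and 9.48 in knockout-labelled pools, against 7.46, 8.19 and 7.97 in VENUS-positive pools (difference 1.60, adjusted p = 0.00221). Il10ra, a chain of the interleukin-10 receptor, was 2.2-fold lower, with 4.53, 5.01 and 4.53 in knockout-labelled pools, against 5.67, 5.69 and 6.12 in VENUS-positive pools (difference -1.14, adjusted p = 0.00117). Kit and Met, the receptor of hepatocyte growth factor (-0.78, adjusted p = 0.0424), completed the 4, and Met lost its call without any 1 pool except knockout-labelled pool 2 (0.0844 to 0.161). The list then held 1 lower gene without any 1 pool except that one, and 1 higher gene without VENUS-positive pool 1 or 3 or knockout-labelled pool 2.

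Interferon-stimulated genes were called in both directions, 3 higher and 4 lower of 33 (21.2%, against 2.12% of all genes), with a median of 0.00. Rtp4 had 7.85, 7.75 and 7.50 in knockout-labelled pools, against 4.37, 3.37 and 3.78 in VENUS-positive pools (difference 3.86, adjusted p = 0.000202). Gbp2, a guanylate-binding GTPase, was 3.86-fold higher and Ddx58, the RNA sensor RIG-I, 3.61-fold higher (adjusted p = 0.00143 and 0.0056), though a further probe set of Ddx58 differed by 0.08. The lower genes were Ifi27l2a (-1.75), Trim30a (-1.58) and the GTPase genes Igtp (-1.31) and Gbp3 (-1.27). The count of higher genes was 5 without VENUS-positive pool 3, and that of lower genes was 2 without any 1 of VENUS-positive pools 2 and 3 and knockout-labelled pools 2 and 3. Ifi27l2a was 1 of those lost, without VENUS-positive pool 3 (adjusted p = 0.06) or knockout-labelled pool 2 (0.0583) or 3 (0.0503).

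The same genes were set beside wild-type MDPs, a comparison that shares the knockout-labelled arrays. Knockout-labelled minus wild-type differences called 155 genes (0.907%), 78 higher (0.456%) and 77 lower (0.45%), against the 362 called here. Ly86 differed from wild type by -6.69, Ctsh by -4.70, Lsp1 by -3.23, Mmp8 by 4.03, Ccr1 by 3.43 and Ccr2 by 2.36, all called. Elane (1.32, adjusted p = 0.413), Ms4a3 (1.00, 0.498) and Gfi1 (0.99, 0.45) were not called against wild type. Of the 15 genes of the primary granule list 1 was, against 8 here. Whether the knockout-labelled pools differ from VENUS-positive and from wild-type pools by unequal amounts is the test of VENUS-positive minus wild type. In that test limma called 0 genes (0%, with 1027 at an unadjusted p under 0.05, smallest adjusted p 0.232), so no gene was shown to differ between the comparisons. A p that misses the threshold does not show that the controls are alike.

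The design text states that differences between MDPs were sorted by signatures of mature cells. Spleen macrophage and granulocyte arrays, which share no sample with this comparison, differed in 31.2% of genes, and the 150 with the largest difference each way were taken. Of the granulocyte genes 11 were called higher and 3 lower (9.33% together, median 0.06). Of the macrophage genes 8 were called higher and 14 lower (14.7% together, median -0.13). Over all genes 1.14% were called higher and 0.977% lower, with a median of -0.01. Siglece, an inhibitory sialic acid receptor of granulocytes, was 8.7-fold higher, with 8.56, 8.17 and 8.94 in knockout-labelled pools, against 5.46, 4.41 and 6.43 in VENUS-positive pools (difference 3.12, adjusted p = 0.00109). The granulocyte count was 7 higher without VENUS-positive pool 1, and the macrophage counts were 5 higher and 9 lower without it. Without knockout-labelled pool 3 the macrophage count was also 9 lower, and without knockout-labelled pool 1 it was 5 higher.

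Read the other way, the 362 genes split by side in the spleen. Of the 195 higher genes, 29.7% were called higher in spleen granulocytes than in spleen macrophages and 19.5% the reverse, against 12.8% and 18.4% of all genes. Of the 167 lower genes, 44.3% were called higher in macrophages and 12.6% higher in granulocytes. These shares are a description of the genes and carry no test.

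**Figure D5:**
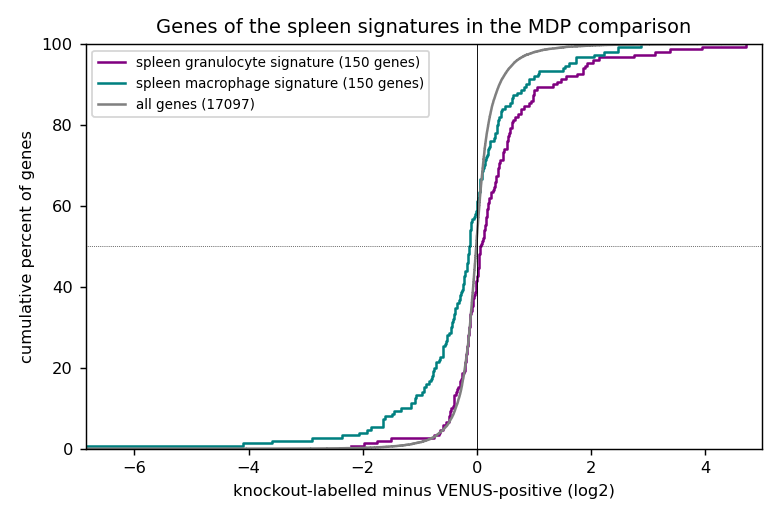
Cumulative percent of genes (vertical axis) by difference (knockout-labelled minus VENUS-positive, log2, horizontal axis) for the granulocyte signature, the macrophage signature (150 genes each) and all 17097 genes. The macrophage curve lies left of the curve of all genes below 0 (median -0.13). The granulocyte curve lies right of the curve of all genes above 0 (median 0.06), and most genes of both signatures lie within 1 log2 unit of 0. The macrophage genes also have an upper tail, with 8 called higher beside 14 lower and differences from -6.85 (Ly86) to 2.87 (Hopx).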

How the data were processed

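Sorted mouse cells were measured on 17 arrays in 6 groups. The deposited values are log2 expression values that the authors made with Affymetrix Expression Console and RMA, per the submitters' processing notes, which name no versions. They ran from 1.69 to 13.5, with array medians of 4.33 to 4.48, and 0 columns were left unmapped. In the platform annotation 28898 probe sets had 1 symbol, 551 had several and 15588 had none. Each of 17097 genes was read from its brightest probe set, by the mean of all 17 arrays (7180 genes had several), and no filter on signal was set.

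The test was limma's moderated two-sided test (version 3.58.1, R 4.3.3, functions lmFit and eBayes), with 1 fit of 6 group means to the 17 arrays (11 residual degrees of freedom, 3.21 prior). Benjamini-Hochberg adjustment ran over the 17097 genes, with calls at adjusted p-values under 0.05. The p-values measure only the spread between pools, whose number limits the precision.

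Named genes are Irf8, Spi1 and the gate genes, the 15 largest rises and 15 largest falls of called genes with no overlap between arrays (unnamed models only among the 5 largest), and for each list its called members, at most 4 by size of difference, or failing any the 2 of smallest p. Genes outside this were named after their values were seen. The members and lists were chosen with earlier results of these data known, and lists were described by counts and medians, with no test of a list. Spleen signatures are the 150 genes with the largest difference each way between macrophages and granulocytes. Promoter sequences are RefSeq's on GRCm38.p6.

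Alternatives were fits of 6 or 11 arrays, the pool number as a block, repeated quantile normalization, median centring, a signal filter, other probe set rules, another prior, array weights and leaving out each pool. Counts of list members in these fits were added after seeing the data.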

Additional observations from a re-analysis of the deposited data

How the results depend on the processing

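The 362 calls became 212 (111 higher, 101 lower) with only the 11 MDP arrays in the fit, and 189 (109 higher, 80 lower) with only these 6, where fewer arrays inform the spread. With the pool number as a replicate block in the fit of these 6 arrays, 107 genes were called (62 higher, 45 lower). Same-numbered pools had correlations of -0.037, 0.046 and 0.147 between their deviations from the group means, and differently numbered pools -0.179 to 0.137. So few values cannot tell whether same-numbered pools share more than a number, and the sources used here do not say. Leaving out 1 pool gave 246 to 308 calls, 139 to 176 higher and 107 to 144 lower. Array weights (381), median centring (332), a filter on signal (338 of 10231 genes), a trended robust prior (344), the mean of a gene's probe sets (392), repeated quantile normalization (365) and all probe sets as features (525 of 28898) left the count within 1.5 times its size. Each of the 362 genes had the same sign in every fit by gene that tested it. For most of these fits that outcome was fixed. Fits of 6 or 11 arrays, the block, the signal filter and the other prior reuse the same difference. Leaving out or weighting pools cannot turn the sign of a gene whose groups do not overlap. Of 90 named genes 74 were called, and 19 of these lost the call without at least 1 pool, 22 in the fit of 6 arrays, 31 in that fit with the replicate block and 20 in the fit of 11. Bcl2 was called only with the mean of its probe sets (-1.14, adjusted p = 0.00207), and Sdhb, a subunit of succinate dehydrogenase, only with array weights, probe set means or repeated quantile normalization (adjusted p 0.0302 to 0.0438). Signal near the arrays' lower quartile (10 higher genes in VENUS-positive pools, 6 lower genes in knockout-labelled pools) limits the size that a difference can show.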

Other observations

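Several groups of genes showed few or no calls, beside 2.12% called of all genes. None of 15 BCL2 family genes was called by limma, with Bcl2, the survival gene, at 10.11, 10.64 and 10.64 in knockout-labelled pools, against 11.70, 10.87 and 11.66 in VENUS-positive pools (difference -0.95, adjusted p = 0.143). None of 30 respiratory chain subunits was called (median -0.03, differences -0.49 to 0.28), and none of 15 eosinophil, basophil and mast cell genes or of 12 stroma and endothelium genes. Of 39 cell cycle genes 1 was lower, Ccnd1, cyclin D1, which was 2.92-fold lower with 6.37, 6.54 and 7.19 in knockout-labelled pools, against 8.34, 8.04 and 8.35 in VENUS-positive pools (difference -1.54, adjusted p = 0.00177). The share called of that list was 2.56%, near that of all genes, and its median was -0.27.

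The Schlafen family, whose members limit proliferation of lymphoid and myeloid cells, was split. Of 8 measured, 1 was called higher and 1 lower (25% together, against 2.12% of all genes). Slfn4 was higher (difference 1.89, adjusted p = 0.0373), with 4.86, 6.17 and 5.06 in knockout-labelled pools, against 3.72, 3.36 and 3.36 in VENUS-positive pools. Slfn3 was lower (-1.74, adjusted p = 0.0433), with 4.37, 3.27 and 4.51 in knockout-labelled pools, against 5.66, 6.51 and 5.21 in VENUS-positive pools. Slfn4 lost the call without any 1 pool except knockout-labelled pool 1 (0.06 to 0.175), and Slfn3 without any 1 of VENUS-positive pools 1 and 2 and knockout-labelled pools 1 and 2 (0.0648 to 0.192).

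Lymphoid genes gave 4 calls, of which Cd28 and Klrk1 averaged under 3.5 in 1 of the groups. The shares called were 7.14% of B cell, 9.09% of T cell and 15.4% of NK cell genes, against 2.12% of all genes. Vpreb1, a surrogate light chain of pre-B cells, was 3.71-fold higher, with 7.66, 6.25 and 7.35 in knockout-labelled pools, against 4.79, 4.68 and 6.12 in VENUS-positive pools (adjusted p = 0.0187), a call lost without any 1 of VENUS-positive pools 1 and 2 and knockout-labelled pools 1 and 3 (0.0781 to 0.0859). Cd28, a co-stimulatory receptor of T cells, had 4.63, 5.61 and 5.16 in knockout-labelled pools, against 3.16, 3.21 and 3.68 in VENUS-positive pools (difference 1.78, adjusted p = 0.00117). Nkg7, also counted in the primary granule list, was the NK cell gene that was higher. Klrk1, which encodes NKG2D, was the lower one, with 3.36, 3.49 and 3.31 in knockout-labelled pools, against 5.69, 4.73 and 5.60 in VENUS-positive pools (difference -1.95, adjusted p = 0.0181), and lost the call without any 1 pool except VENUS-positive pool 2 (0.0536 to 0.0762).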
